A study of Mus musculus with 12 samples.

Results

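The Klrb1 genes encode the NKR-P1 receptors of natural killer (NK) cells, and the Clec2 genes encode the Clr proteins, which include their ligands. The members were the 7 genes Klrb1a, Klrb1b, Klrb1c, Klrb1f, Clec2d, Clec2i and Clec2g, of 19938 genes measured. Each was taken from the probe set that the platform annotation paired with its symbol and no other. Each member had 1 such probe set, so no choice between probe sets was needed. The arrays measured total RNA from KY-1 and KY-2, mouse NK cell lines of genotype p53KO (p53 knocked out), which were grown with human interleukin-15 at 200 U/mL. Cells were transduced with a vector for green fluorescent protein (GFP) or with one for GFP joined to FLAG-tagged Myb, a transcription factor of blood progenitors, and GFP-positive cells were sorted. The groups were KY-1 with GFP (3 arrays), KY-1 with Myb (4 arrays), KY-2 with GFP (2 arrays) and KY-2 with Myb (3 arrays).

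NKR-P1 receptors and Clr proteins are C-type lectin-like membrane proteins whose genes lie together in the NK gene complex. NKR-P1A (Klrb1a), NKR-P1C (Klrb1c, the NK1.1 antigen used to identify mouse NK cells) and NKR-P1F (Klrb1f) are grouped as activating receptors, and NKR-P1B (Klrb1b) is inhibitory. The inhibitory receptor binds Clr-b (Clec2d), which many healthy cells display and can lose under stress, and NKR-P1F binds Clr-g (Clec2i). NK cells express receptors and some Clr ligands together, so both sides of the system can be read in one cell line.

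In the RefSeq gene table of GRCm38.p6 the 7 members lay within 577 kb of chromosome 6, in the order Klrb1a, Klrb1c, Klrb1b, Clec2i, Clec2g, Klrb1f and Clec2d. The windows from 250 bases before to 50 bases after the start were available for 7 of 7 members, in the same build. The windows of the 4 members called lower in KY-1 with Myb are shown, each on its gene's strand. Capitals mark matches to Myb recognition words, searched on both strands. The words were TAACTG, its variant with C as the first letter, CAACTG, and the same pair with G as the fifth letter, TAACGG and CAACGG. No window shown held more than 1 match, so none overlapped.

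Klrb1a, chr6:128622885-128623184, minus strand: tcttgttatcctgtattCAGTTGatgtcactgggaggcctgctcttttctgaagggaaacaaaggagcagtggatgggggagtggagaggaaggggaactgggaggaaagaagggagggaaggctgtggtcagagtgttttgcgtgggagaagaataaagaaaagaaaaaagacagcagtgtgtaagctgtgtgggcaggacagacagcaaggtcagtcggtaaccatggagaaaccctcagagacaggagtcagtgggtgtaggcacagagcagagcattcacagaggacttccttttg
Klrb1c, chr6:128788592-128788891, minus strand: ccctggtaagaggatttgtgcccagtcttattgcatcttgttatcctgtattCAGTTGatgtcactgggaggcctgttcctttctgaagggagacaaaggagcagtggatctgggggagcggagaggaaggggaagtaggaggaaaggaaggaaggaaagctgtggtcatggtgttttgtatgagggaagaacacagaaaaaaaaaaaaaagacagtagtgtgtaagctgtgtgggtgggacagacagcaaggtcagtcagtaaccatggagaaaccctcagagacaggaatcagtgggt
Klrb1f, chr6:129045651-129045950, plus strand: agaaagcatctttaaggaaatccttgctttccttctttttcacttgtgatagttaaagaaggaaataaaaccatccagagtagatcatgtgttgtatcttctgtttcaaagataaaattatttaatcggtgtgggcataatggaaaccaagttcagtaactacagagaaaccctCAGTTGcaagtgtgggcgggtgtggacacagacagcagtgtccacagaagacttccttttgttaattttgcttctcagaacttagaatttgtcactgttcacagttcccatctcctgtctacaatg
Clec2i, chr6:128887337-128887636, plus strand: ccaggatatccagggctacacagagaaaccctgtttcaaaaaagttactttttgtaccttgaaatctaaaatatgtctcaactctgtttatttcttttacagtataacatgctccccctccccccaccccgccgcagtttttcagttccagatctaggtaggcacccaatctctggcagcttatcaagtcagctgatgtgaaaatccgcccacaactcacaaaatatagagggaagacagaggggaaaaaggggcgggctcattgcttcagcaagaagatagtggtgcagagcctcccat

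The windows of Klrb1a and Klrb1c were near copies, with 236 identical bases in 265 aligned columns when overhanging ends were left out (89.1%). Both held 1 match, the word CAACTG on the opposite strand, at position -233 from the start in Klrb1a and -198 in Klrb1c. Klrb1f held the same word at position -76. The window of Clec2i held no match. Klrb1b, not shown, held TAACGG at position -229, and Clec2d and Clec2g held none. Clec2i and Klrb1b each had 2 listed starts, of which only the first was searched. Of 27025 genes with a window of this length, 28.2% had at least 1 match, and of the members 4 of 7 did. A match here describes letters, not a bound site.

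The vectors separated as labelled. Myb (probe set 10368199) rose from 7.99 ± 0.07 (SD, n = 2) to 9.57 ± 0.02 (SD, n = 3) log2 units in KY-1 and from 5.05 ± 0.07 (SD, n = 2) to 9.74 ± 0.07 (SD, n = 3) in KY-2. Myb thus rose more in KY-2, so the Myb effects of the lines are not compared at an equal rise of Myb. Array medians lay between 5.31 and 5.42 on the same log2 scale. The values carry no detection calls, so for levels below these medians the size of a change is uncertain. In KY-1, GFP array 1 differed from GFP array 2, and Myb array 3 from Myb array 4, by less than other arrays of a group did (robust SD of log2 differences at most 0.0469, against at least 0.102). Each of these pairs was counted as 1 sample, which left 2 GFP and 3 Myb replicates per line. Among 12 NK cell markers, 10 had a mean level above 8 log2 units in KY-1 with GFP, 9 in KY-1 with Myb and 8 in each KY-2 group. Eomes and Itga2 were below 8 in all 4 groups, Tbx21 in both KY-2 groups, and Ncr1 in every group but KY-1 with GFP. Of 9 T cell markers 3, Cd3g, Cd8a and Cd28, were above 8 in both KY-2 groups, and 0 were in either KY-1 group. None of the B cell, myeloid or erythroid and megakaryocyte markers were above 8 in any group. Of the mast cell and basophil markers 1, Kit, was above 8 in both KY-1 groups and in KY-2 with GFP. The labels do not tell whether the replicates came from separate cultures. The p-values therefore reflect only how far these samples spread, and part of that may be technical.

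Probe sets of this family can read near-identical relatives. The annotation listed 14 Klrb1 and Clec2 probe sets, and 0 of its sequence accessions stood under more than 1 of them. Probe sequences were not used here, so how far a probe set reads a relative was not tested. KY-2 with GFP stood above KY-1 with GFP by 3.37 log2 units for Klrb1a, whereas it stood below by 0.59 for Klrb1b and by 0.24 for Klrb1c. With Myb in KY-1 the Klrb1 members all read lower. The differences were -1.02 for Klrb1a, -0.15 for Klrb1b (not called), -0.58 for Klrb1c and -0.68 for Klrb1f. Neither comparison tells how far a probe set reads a relative.

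**Figure D1:**
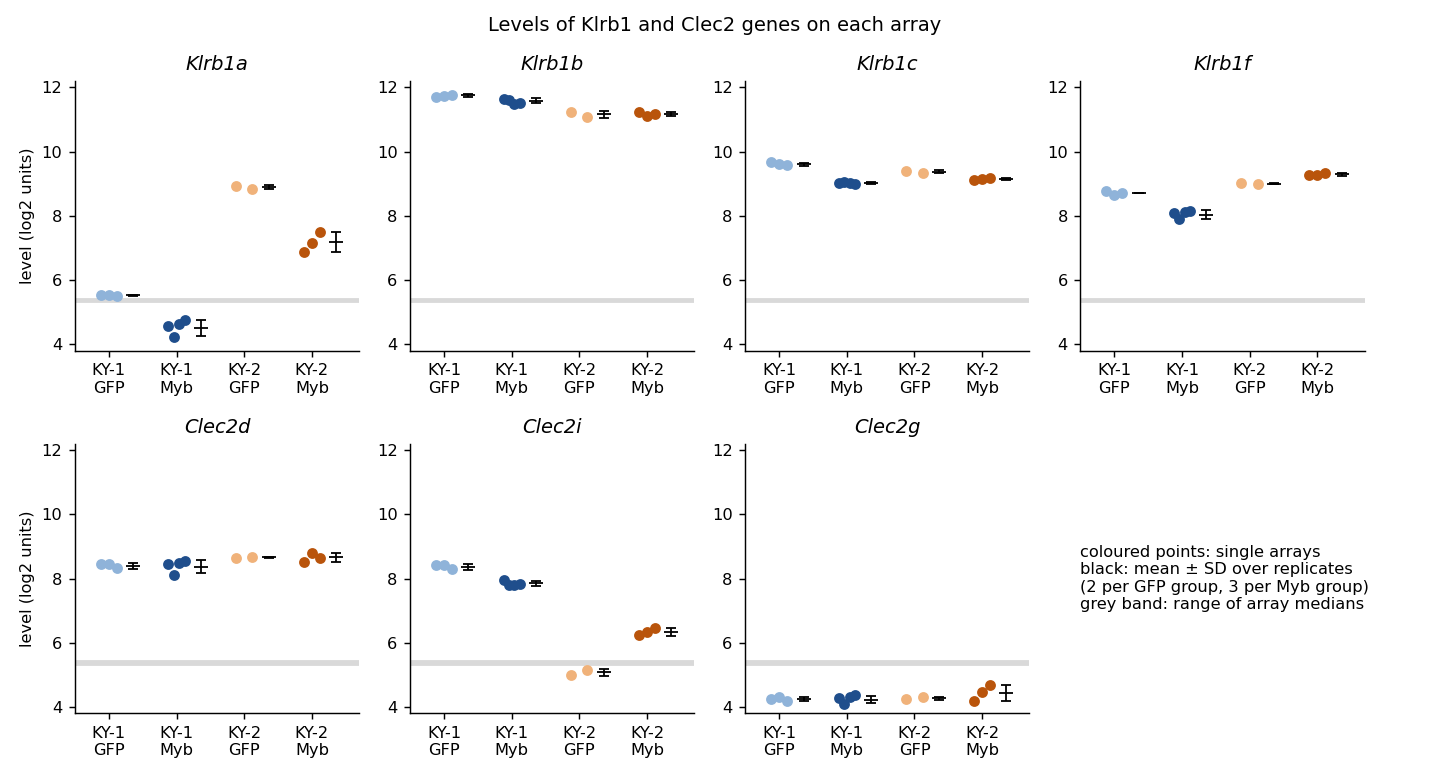
Level in log2 units of each of the 7 genes on all 12 arrays (coloured points), with the mean ± SD over 2 GFP and 3 Myb replicates per line (black) and the range of array medians, 5.31 to 5.42 (grey band). Klrb1a and Clec2i span the widest ranges between groups, while Clec2g stays below the band on every array.

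In KY-1, Myb lowered 3 receptor genes and 1 ligand gene. Klrb1a, Klrb1c, Klrb1f and Clec2i fell, by between 0.51 and 1.02 log2 units, and 0 of 7 members rose. Klrb1b, Clec2d and Clec2g did not pass the test. That is 4 of 7 called, against 1.22% of all genes (0.612% lower and 0.612% higher) at the same threshold, a limma adjusted p under 0.05. All genes include dim ones. With genes under the median level of all genes left out, 422 genes were called, against 244 in the main fit, so the share among brighter genes was higher than 1.22%. The arrays of the 2 vectors did not overlap for 5 of 7 members, against 19.0% of all genes. Without GFP arrays 1 and 2, without GFP replicate 3 or without Myb replicate 1 of KY-1, 2 of 7 members were called, Klrb1c and Klrb1f. The members' median difference was -0.51, against -0.0013 over all genes.

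In KY-2, Klrb1a fell and Clec2i rose. Of 7 members 2 were called, against 2.83% of all genes, 1 lower against 1.55% and 1 higher against 1.28%. With genes under the median level left out, 746 genes were called, against 565 in the main fit, so the share among brighter genes was again higher. Arrays did not overlap for 4 of 7, against 31.0% of all genes. The other 5 did not pass (with a mean-variance trend 4 members were called), and the members' median difference was 0.01 against 0.011 over all genes. Of 12 NK cell markers, which include Klrb1c, 1 was higher and 2 were lower with Myb in KY-1, and 0 were higher and 4 lower in KY-2. Their mean level went from between 9.74 and 9.78 log2 units to between 9.51 and 9.58 in KY-1, and from between 9.67 and 9.82 to between 9.43 and 9.51 in KY-2. Of 7 mast cell and basophil markers 2 were higher with Myb in KY-1, where their mean level went from between 5.23 and 5.27 log2 units to between 5.51 and 5.69. Of 9 T cell markers 1 was higher in KY-1 and 2 were lower in KY-2, and 0 of the B cell, myeloid and erythroid and megakaryocyte markers were called with Myb in either line. Their part in the members' changes was not tested. In bulk RNA, fewer cells that carry a transcript and less of it per cell cannot be told apart.

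**Figure D2:**
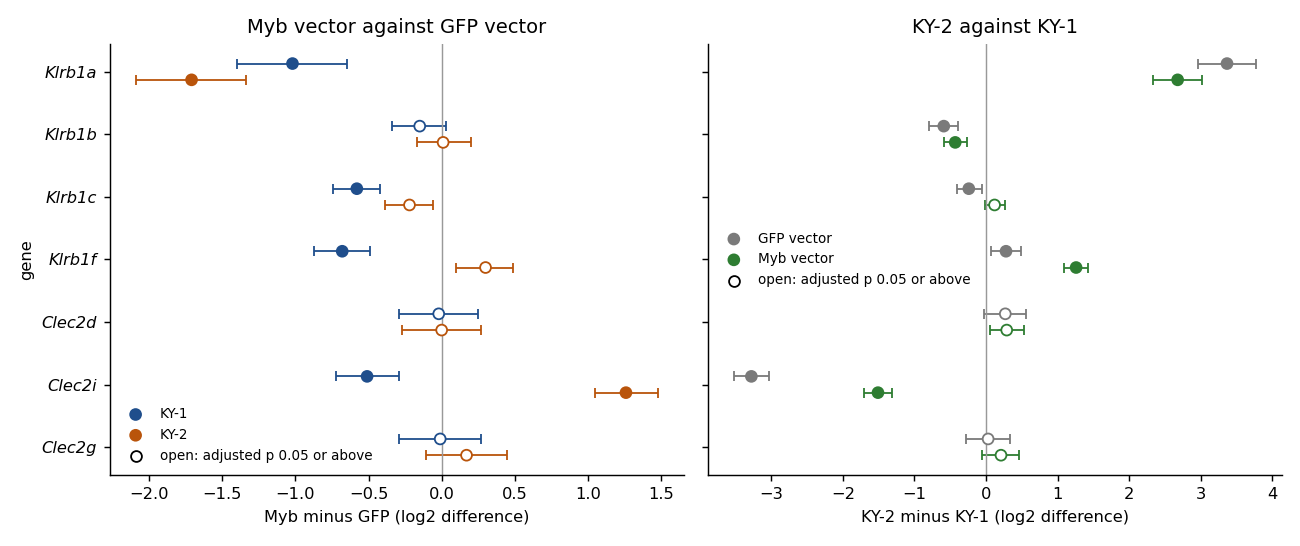
Log2 differences with 95% confidence intervals from the limma fit for each gene, as Myb minus GFP in each line (left) and as KY-2 minus KY-1 with each vector (right). Filled points have an adjusted p under 0.05. Klrb1a lies left of 0 in both lines, and Clec2i lies on opposite sides.

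Klrb1a (probe set 10548286), the gene of the receptor NKR-P1A, read 5.52, 5.53 and 5.51 log2 units on the KY-1 GFP arrays and 4.58, 4.22, 4.63 and 4.77 on the KY-1 Myb arrays. The KY-2 GFP arrays read 8.94 and 8.84, and the KY-2 Myb arrays read 6.88, 7.15 and 7.5. The arrays of the 4 groups did not overlap, and the order ran from KY-2 with GFP through KY-2 with Myb and KY-1 with GFP down to KY-1 with Myb. In KY-1 the level fell by 1.02 ± 0.17 log2 (SE, limma adjusted p = 0.0166), a 2.03-fold difference. In KY-2 it fell by 1.71 ± 0.17 (SE, limma adjusted p = 0.000243), a 3.28-fold difference. Over all genes 0.206% were called lower in both lines. The fall was larger in KY-2 by 0.69, with a 95% interval of the difference between lines from -1.23 to -0.15, which did not pass over all genes (limma adjusted p = 0.322). The KY-1 GFP arrays stood just above the array medians and the KY-1 Myb arrays below them, so the size of the KY-1 fall is uncertain. That call was lost without KY-1 GFP arrays 1 and 2 (adjusted p = 0.132), without GFP replicate 3 (adjusted p = 0.133) or without Myb replicate 1 (adjusted p = 0.0521). Over 18 alternatives the limma difference lay between -1.12 and -0.88.

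Klrb1c (probe set 10548307), the gene of NK1.1, fell in KY-1 from 9.61 ± 0.05 (SD, n = 2) to 9.03 ± 0.03 (SD, n = 3). The GFP arrays read 9.67, 9.62 and 9.58, and the Myb arrays read 9.03, 9.06, 9.01 and 8.99. The fall of 0.58 ± 0.07 log2 (SE, limma adjusted p = 0.00301) is 1.5-fold and held in 18 of 18 alternatives. In KY-2 the GFP arrays read 9.41 and 9.34 and the Myb arrays 9.12, 9.16 and 9.17. These did not overlap either, but the difference of -0.22 ± 0.07 (SE, limma adjusted p = 0.185) did not pass over all genes. Its 95% interval ran from -0.39 to -0.06, and it passed with a mean-variance trend in the moderation (adjusted p = 0.0398). The effect in KY-2 minus that in KY-1 was 0.36, with an interval from 0.13 to 0.59 (limma adjusted p = 0.201). That difference between lines passed with all 12 arrays as separate replicates (adjusted p = 0.0379) and with the trend (adjusted p = 0.0371).

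Klrb1f (probe set 10542140), the gene of NKR-P1F, took opposite signs in the lines. The KY-1 GFP arrays read 8.78, 8.66 and 8.70 log2 units and the KY-1 Myb arrays 8.08, 7.89, 8.12 and 8.15. The KY-2 GFP arrays read 9.01 and 8.98 and the KY-2 Myb arrays 9.27, 9.27 and 9.34. With Myb the level was thus lower on every KY-1 array and higher on every KY-2 array. The KY-1 fall was 0.68 ± 0.09 (SE, limma adjusted p = 0.00331) and held in 18 of 18 alternatives. The KY-2 difference of 0.30 ± 0.09 (SE, limma adjusted p = 0.129) did not pass, although it did with dim genes left out (adjusted p = 0.0399) and with a trend (adjusted p = 0.0266). The difference between the lines' Myb effects was 0.98 ± 0.12 (SE, limma adjusted p = 0.00309). By that test 2 of 7 members differed, Klrb1f and Clec2i, both with the higher value in KY-2. Of all genes 0.843% differed by that test, 0.461% in this direction.

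Klrb1b (probe set 10548314), the gene of the inhibitory receptor NKR-P1B, did not pass in either line. The KY-1 GFP arrays ran from 11.71 to 11.78 log2 units and the KY-1 Myb arrays from 11.50 to 11.65, which did not overlap. The difference of -0.15 ± 0.08 (SE) did not pass (limma adjusted p = 0.558), with an interval from -0.34 to 0.03. In KY-2 the GFP arrays at 11.08 and 11.23 enclosed the Myb arrays at 11.10, 11.18 and 11.22. That difference was 0.01 ± 0.08, with an interval from -0.17 to 0.20 (limma adjusted p = 0.979).

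Clec2i (probe set 10542120), the gene of Clr-g, moved in opposite directions. It read 8.41, 8.42 and 8.30 log2 units with GFP in KY-1 and 7.94, 7.79, 7.80 and 7.82 with Myb. In KY-2 it read 5.0 and 5.15 with GFP and 6.23, 6.33 and 6.47 with Myb. No groups overlapped, and the order was KY-1 with GFP, KY-1 with Myb, KY-2 with Myb and KY-2 with GFP, so both Myb groups lay between the GFP groups. It rose in KY-2 by 1.26 ± 0.10 log2 (SE, limma adjusted p = 3.24e-05), a 2.40-fold difference from a level below the array medians, and this held in 18 of 18 alternatives. It fell in KY-1 by 0.51 ± 0.10 (SE, limma adjusted p = 0.0327), a 1.42-fold difference. The effects differed between lines by 1.77 ± 0.14 (SE, limma adjusted p = 8.01e-05). Myb itself rose by 1.58 log2 units in KY-1 and by 4.69 in KY-2. Of all genes 0.0100% were called lower in KY-1 and higher in KY-2, 2 genes including Clec2i. The KY-1 call was lost in 8 of 18 alternatives. They were median centring (adjusted p = 0.0703), a block of KY-1 array sets (adjusted p = 0.0588), dropping each of the 5 replicates of KY-1 in turn (0.0568 to 0.262) and leaving out KY-2 Myb replicate 2 (0.0566).

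Clec2d (probe set 10542156), the gene of Clr-b, the ligand of the inhibitory receptor, did not pass in either line. Its arrays ran from 8.33 to 8.45 log2 units with GFP and from 8.12 to 8.54 with Myb in KY-1. In KY-2 they ran from 8.65 to 8.66 with GFP and from 8.52 to 8.80 with Myb, and the vectors overlapped in both lines. The differences were -0.02, with an interval from -0.29 to 0.25, in KY-1 and 0.00, with an interval from -0.27 to 0.27, in KY-2 (limma adjusted p = 0.976 and 0.998).

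Clec2g (probe set 10542129), the gene of Clr-d, lay below the array medians on all 12 arrays, between 4.10 and 4.67 log2 units. The groups overlapped throughout. Its differences with Myb were -0.01 in KY-1, with an interval from -0.29 to 0.27, and 0.17 in KY-2, with an interval from -0.11 to 0.45 (limma adjusted p = 0.992 and 0.669). At so low a signal a change may not be detectable.

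The KY-1 arrays fell into 2 sets that the labels do not name. Across 6587 genes with a mean above 7, deviations from the group means correlated between GFP arrays 1 and 2 and Myb arrays 3 and 4, and between GFP array 3 and Myb arrays 1 and 2, with r from 0.27 to 0.43. Across the sets r ran from -0.47 to -0.23. Deviations within a group cancel out, and the sets were drawn from these same correlations. The opposite signs are therefore partly built in. Within the first set Klrb1a differed by -0.83, Klrb1c by -0.65, Klrb1f by -0.59 and Clec2i by -0.60 log2 units with Myb. Within the second set the same genes differed by -1.12, -0.53, -0.72 and -0.43. All 4 genes called in KY-1 were lower in both sets. Their GFP and Myb arrays did not overlap, so any split of these arrays would give this.

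**Figure D3:**
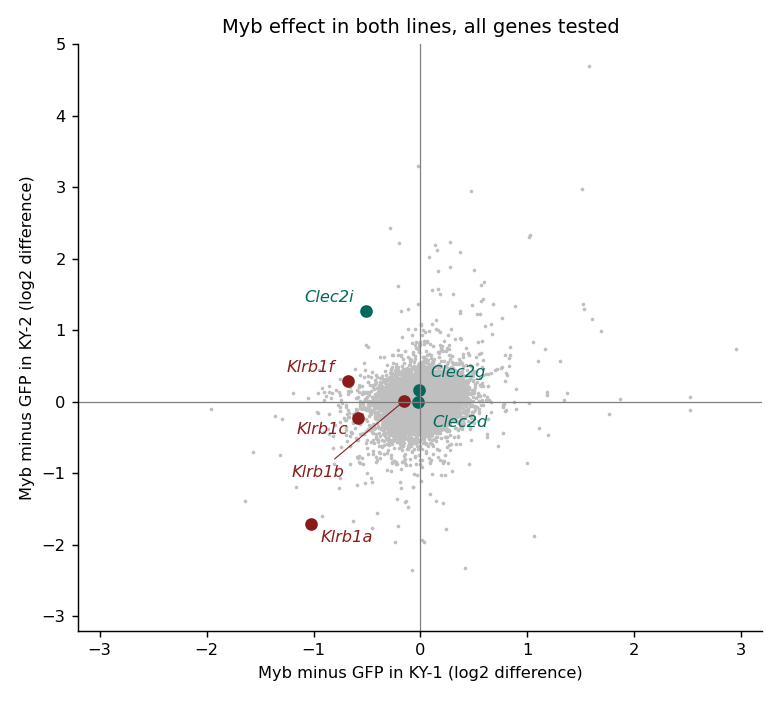
Log2 difference of Myb minus GFP in KY-1 (x axis) against that in KY-2 (y axis) for 19938 genes (grey) with the 4 receptor genes (red) and the 3 Clec2 genes (green) named. Klrb1a lies low in both, at -1.02 and -1.71, Clec2i at -0.51 and 1.26, and Klrb1b, Clec2d and Clec2g lie near the centre.

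Along the chromosome, called genes lay beside genes that did not pass. From the lower end of Klrb1a, Klrb1c began at 169.3 kb and Klrb1b at 204.5 kb, and in KY-1 Klrb1c fell where Klrb1b did not pass. Clec2i, the next gene, rose in KY-2, while Clec2g beyond it did not pass in either line. The 7 other measured genes and pseudogenes of both families were not called. Klrb1, the gene of NKR-P1G, read between 6.86 and 7.27 on all arrays and differed by -0.18 ± 0.09 (SE, limma adjusted p = 0.524) in KY-1 and by -0.23 ± 0.09 (SE, limma adjusted p = 0.294) in KY-2. Klrb1-ps1, Clec2e, Clec2h, Clec2j, Clec2l and Clec2m read at most 5.09 on every array, and their lowest limma adjusted p with Myb was 0.38.

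**Figure D4:**
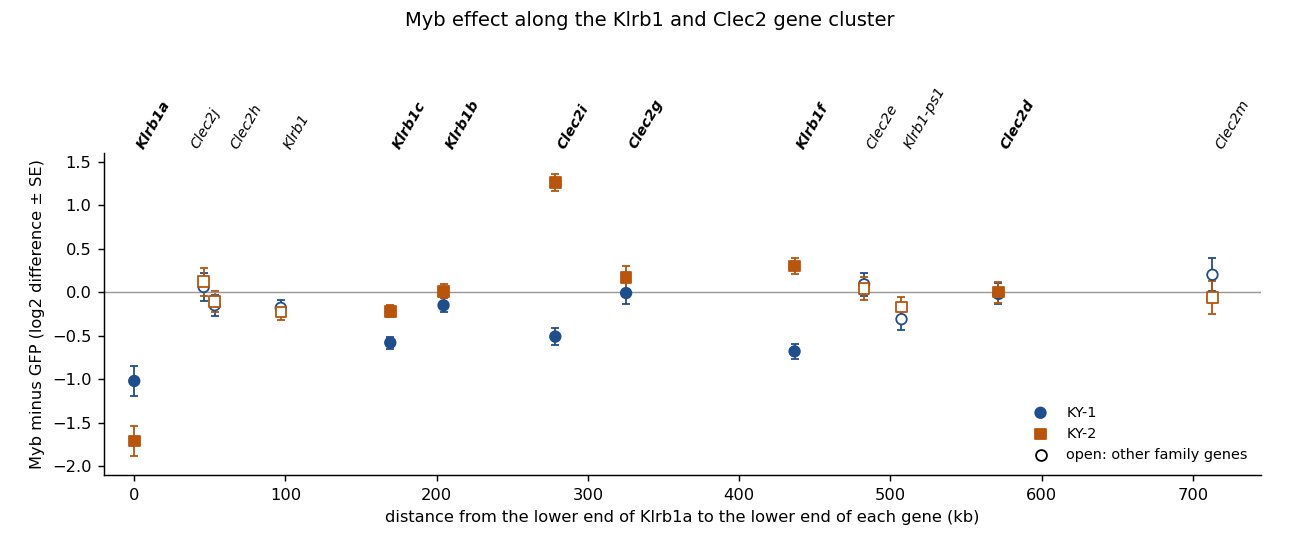
Log2 difference of Myb minus GFP ± SE in KY-1 (circles) and KY-2 (squares) for each family gene of the chromosome 6 cluster, by its distance in kb from the lower end of Klrb1a. The 7 members are filled and bold, and the other family genes, open, lie between -0.31 and 0.20.

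The lines differed at these genes without the Myb vector. Myb itself read 7.99 log2 units in KY-1 with GFP and 5.05 in KY-2 with GFP. With the GFP vector KY-2 was higher than KY-1 in Klrb1a and Klrb1f and lower in Klrb1b, Klrb1c and Clec2i. That is 5 of 7 members called, against 28.9% of all genes (13.6% higher and 15.2% lower in KY-2). All genes include dim ones, whereas 6 of 7 members stood at or above the median level of all genes. With genes under that median left out, 5466 genes and 5 members were still called, against 5757 genes in the main fit. The share called among brighter genes was thus well above 28.9%, so 5 of 7 is not read as an excess. Arrays of the lines did not overlap for 6 of 7 members, against 57.4% of all genes. Klrb1a was 10.3-fold higher in KY-2, by 3.37 ± 0.19 log2 (SE, limma adjusted p = 1.82e-07), and Clec2i was 9.71-fold lower, by -3.28 ± 0.11 (SE, limma adjusted p = 2.71e-09). The inhibitory receptor gene Klrb1b was lower by 0.59 ± 0.09 (SE, limma adjusted p = 0.00054). The smaller calls were Klrb1c at -0.24 (limma adjusted p = 0.0492) and Klrb1f at 0.28 (limma adjusted p = 0.0459). They were lost in 13 and 9 of 18 alternatives. Without KY-1 Myb replicate 2, or without Myb replicate 3 and 4 of KY-1, 4 members were called, and without any other single replicate 3 were. The ligand genes Clec2d, at 0.27 with an interval from -0.03 to 0.56, and Clec2g, at 0.03 with an interval from -0.28 to 0.34, did not pass.

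With the Myb vector 4 of 7 members differed between the lines, against 31.6% of all genes (14.7% higher and 16.9% lower in KY-2). With genes under the median level left out, 5936 genes and 5 members were called, against 6305 genes in the main fit. The share called among brighter genes was thus again well above that of all genes, and 4 of 7 members is not more than it. Arrays did not overlap for 5 of 7 members, against 39.9% of all genes. Klrb1a was again higher in KY-2, by 2.68 ± 0.15 log2 (SE, limma adjusted p = 1.62e-07), and Clec2i lower, by -1.51 ± 0.09 (SE, limma adjusted p = 1.8e-07). Klrb1b was lower by 0.43 ± 0.08 (SE, limma adjusted p = 0.00107). Klrb1f was higher by 1.26 ± 0.08 (SE, limma adjusted p = 3.21e-07), a 2.39-fold difference. Klrb1c, at 0.12 with an interval from -0.02 to 0.27, did not pass (limma adjusted p = 0.198). Clec2d, at 0.29 (limma adjusted p = 0.0708), passed in 5 of 18 alternatives. Cell type markers differed between the lines alongside. Of 12 NK cell markers, which include Klrb1c, 4 were higher and 6 lower in KY-2 with GFP, and 3 were higher and 6 lower with Myb. Of the erythroid and megakaryocyte markers 1 was higher with either vector, of the B cell markers 1 was lower with GFP, and 0 myeloid markers were called. Of 9 T cell markers 4 were higher and 1 lower in KY-2 with GFP, and 4 were higher and 0 lower with Myb, with median differences of 0.035 and 0.003. Their mean level was between 5.05 and 5.32 log2 units in KY-1 and between 7.04 and 7.23 in KY-2, with Cd3g, Cd8a and Cd28 above 8 in KY-2. Of 7 mast cell and basophil markers 3 were lower in KY-2 with either vector and 0 were higher, with median differences of -0.235 with GFP and -0.308 with Myb. Their mean level was between 5.23 and 5.69 in KY-1 and between 4.44 and 4.61 in KY-2. The part of these lists in the line differences was not tested.

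Genes with the most similar levels were sought for the 3 members whose group means spanned at least 1 log2 unit, among 1304 protein-coding genes of the same span, over 10 replicates. Klrb1a was most like St8sia4, a polysialyltransferase gene (Pearson r = 0.994), Papolg, a poly(A) polymerase gene (r = 0.992), and Cd200r2 (r = 0.989). Klrb1f was most like Akr1c13, an aldo-keto reductase gene (r = 0.97), Sh3kbp1, an adaptor gene (r = 0.967), and the kinase gene Map4k5 (r = 0.963). Clec2i was most like the stress-response gene Nupr1 (r = 0.991), Scd1, a fatty acid desaturase gene (r = 0.984), and the nuclear receptor gene Rora (r = 0.982). The replicates share 4 groups, so these values mainly restate the order of the group means. Nupr1, for example, read 9.53 and 9.32 log2 units in KY-1 with GFP and Myb, and 7.48 and 8.20 in KY-2.

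Other genes were taken from 3 written lists. Of 21 tested adaptors, kinases and phosphatases that act downstream of NK cell receptors, not all of them of NKR-P1, 1 rose and 0 fell in KY-1. In KY-2, 2 rose and 3 fell. Of all genes, 0.612% rose and 0.612% fell in KY-1, and 1.28% rose and 1.55% fell in KY-2. Lat2, a membrane adaptor, rose in both, by 0.79 ± 0.09 log2 (SE, limma adjusted p = 0.00121) in KY-1 and by 0.65 ± 0.09 (SE, limma adjusted p = 0.00178) in KY-2. The adaptor gene Lat rose in KY-2 by 0.50 ± 0.09, and Vav3, an exchange factor, and Sh2d1b1, the adaptor EAT-2, fell there by 0.78 ± 0.12 and 0.45 ± 0.10. The median of these 21 genes was 0.014 for KY-1 and -0.136 for KY-2, against -0.0013 and 0.011 over all genes.

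Of 30 tested lectin-like genes of the NK gene complex beyond the members, 1 rose and 0 fell in KY-1, against 0.612% of all genes each way. In KY-2, 2 rose and 1 fell, against 1.28% and 1.55% of all genes. Klrh1 rose in KY-1 from 7.04 to 9.56 log2 units and stood at 6.51 and 6.58 in KY-2. In KY-2 Clec12a, an inhibitory myeloid lectin, rose from 7.86 to 9.88 and Clec1b from 3.60 to 4.24, the last below the array medians. Klrd1, the CD94 partner chain of NKG2 receptors, fell there by 0.36 ± 0.08 (SE, limma adjusted p = 0.0367). The list's median was -0.047 for KY-1 and -0.061 for KY-2.

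Of 19 other NK receptor genes 0 rose and 4 fell in KY-1, against 0.612% of all genes each way. In KY-2, 0 rose and 6 fell, against 1.28% and 1.55% of all genes. Cd226 (DNAM-1) went from 10.36 to 9.61 in KY-1 and from 9.36 to 8.30 in KY-2. Fcgr3 (CD16) went from 9.71 to 9.12 and from 9.81 to 9.03. In KY-1 Ncr1 (NKp46) and Slamf7 were the others, and in KY-2 Crtam and Lilrb4a had the smallest p-values of the list. For this list the median was -0.021 in the KY-1 comparison and -0.143 in the KY-2 comparison.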

How the data were processed

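The authors deposited log2 values, 1 per probe set, from 12 single-colour Affymetrix arrays. The submitters' processing notes name Partek and RMA, a method of background correction, quantile normalization and probe summary, without options or versions. Of 35556 probe sets, 21789 had 1 symbol in the platform annotation. Symbols were checked by Entrez identifier against RefSeq (GRCm38.p6), and the brightest probe set of each gene over the 12 arrays gave 19938 genes, with no filter on dim signals.

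Close pairs of KY-1 arrays (robust SD of log2 differences under 0.5 of the median over pairs of 1 group, over 10624 probe sets with a mean above 7) were averaged. Limma 3.58.1 in R 4.3.3 fitted the 4 group means to 10 replicates (6 residual degrees of freedom), with Benjamini-Hochberg adjustment over all genes at 0.05. The test was checked on simulated data. All members are named, with Myb, up to 4 called genes per list and contrast with the smallest p, and the 3 genes most like a member. The members and lists were chosen with earlier results of these data known. Promoter windows are RefSeq's, aligned with Biopython 1.88.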

Additional observations from a re-analysis of the deposited data

Results flagged for a closer look

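The Myb effect, as KY-2 minus KY-1, differed between lines by the test of that difference for 2 of the 7 members. It was 1.77 log2 units for Clec2i and 0.98 for Klrb1f. Among the other genes named from the lists it was 1.94 for Clec12a, 0.91 for Clec1b, 0.67 for Lat and 1.86 for Ncr1, whose KY-2 levels were 5.43 with GFP and 5.34 with Myb. It was -2.45 for Klrh1, -1.99 for Crtam and -0.74 for Tigit. Limma adjusted p-values for these list genes lay between 2.42e-05 (Clec12a) and 0.0453 (Tigit). Myb itself rose by 1.58 log2 units in KY-1 and by 4.69 in KY-2, so these effects are not compared at an equal rise of Myb. Replicate groups of 2 or 3 were too small to be checked for a single array far from the others.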

How the results depend on the processing

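Each member and comparison was refitted under 18 alternatives, 17 for the dim Clec2g. Over all of them, 562 kept their direction and side of the threshold, 33 lost and 11 gained a call, and 19 changed sign, all 19 for members not called in that comparison. With the replicate number as a block (replicate block, all 12 arrays) the counts of members called were 4 in KY-1, 2 in KY-2, 2 for the difference between lines, 5 between lines with GFP and 4 with Myb, equal to the main counts. The numbers did not pair the samples (r between same-numbered GFP and Myb arrays from -0.47 to 0.12). Leaving out 1 replicate gave 2 to 4 members in KY-1 and 3 or 4 between the lines with GFP, where a block of KY-1 array sets, added after seeing the data, gave 3. A trend gave 4 members in KY-2. Where 1 GFP sample was left, it was assumed to vary like the other groups.

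Sign changes were small. Clec2d in KY-1 ran from -0.10 to 0.10 when 1 replicate was left out (-0.08 without GFP replicate 3), and became 0.01 with the set block, 0.02 with median centring, 0.03 without GFP arrays 1 and 2 and 0.10 without Myb replicate 2. Its difference between lines became -0.01, -0.04, -0.04 and -0.10 in the same order, and -0.05 without KY-2 Myb replicate 2, and ran up to 0.10 (0.09 without KY-2 Myb replicate 1). Clec2g in KY-1 became 0.01, 0.04, 0.04 and 0.06 in that order and 0.04 with a second quantile normalization, and between lines with GFP -0.03 with the set block and -0.02 without KY-1 GFP replicate 3. Klrb1b in KY-2 ran from -0.07 to 0.09 without 1 replicate and became -0.01 with median centring, -0.07 without GFP replicate 2 and -0.02 without Myb replicate 1. The causes were not tested.

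Over all genes, the 244 calls in KY-1 became 823 with 12 arrays, 422 with dim genes left out (fewer genes tested), 484 with a trend and 72 to 142 without 1 KY-1 replicate. The 565 in KY-2 became 888 with a trend and 182, 284 and 367 without GFP replicates 1 and 2 and Myb replicate 3. The 168 between lines became 427, 282 and 362 under the first 3, 109 without KY-1 GFP replicate 3 and 88 without KY-2 GFP replicate 1. A low signal limits Clec2g in all groups, Klrb1a in KY-1 and Clec2i in KY-2 with GFP.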

Other observations

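Beyond the Klrb1 and Clec2 genes, some lectin-like receptors of the same gene complex also differed between the lines. With the GFP vector 4 of 30 such genes were higher and 14 lower in KY-2 than in KY-1, against 13.6% and 15.2% of all genes. The share higher was near that of all genes. All genes include dim ones, which were called less often, so the counts are not read as a trait of this list. Klrc1, the NKG2A chain of an inhibitory receptor for MHC class I, stood at 6.73 log2 units in KY-1 and 10.83 in KY-2. Klri1, a lectin-like receptor chain, stood at 9.90 in KY-1 and 5.67 in KY-2. Of 19 other NK receptor genes 10 were higher and 4 lower in KY-2, against the same shares of all genes. Cd28, a costimulatory receptor of T cells, went from 4.29 to 9.48, Tigit from 6.25 to 9.54 and Cd300a from 5.58 to 8.45. For each of these 5 genes the limma adjusted p was 3.99e-09 or lower, with 2 GFP replicates per line.

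Among 21 adaptors, kinases and phosphatases 6 were higher and 5 lower in KY-2 with GFP, against 13.6% and 15.2% of all genes. These shares include dim genes, which were called less often. Zap70, a kinase that binds phosphorylated receptor tails, was lower by 0.81 ± 0.09 log2 (SE, limma adjusted p = 4.16e-05), and Lcp2, the adaptor SLP-76, was higher by 0.66 ± 0.08 (SE, limma adjusted p = 0.000121).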
